A study of Mus musculus with 3 samples.

Results

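The genes Hmox1, Slc40a1, Fth1, Ftl1, Tfrc and Slc11a1, which take up, store, export or release iron, were followed through the leukocytes of the mouse pancreas. They are 6 of the 31053 genes in the count matrices. They were chosen by name, as members of the iron and heme pathway, and not by a cutoff on their values, but with earlier results of these data known. They were read in 13753 cells from 3 single-cell libraries. C57BL/6J mice of 6 to 8 weeks, of both sexes, received 1 intraperitoneal injection of PBS or of 1 mg of WGP, whole yeast β-glucan particles that phagocytes must engulf. Live CD45+ cells were then sorted from the pancreas of PBS mice and of mice taken 3 or 7 days after WGP, and each of these 3 groups gave 1 library. The number and sex of the mice behind a library are not in the labels, and every comparison below is between 3 libraries and not between replicated conditions, so no p-value is given.

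Macrophages are the cells that recycle iron. They break down the heme of engulfed red cells with heme oxygenase 1 (Hmox1), which frees iron, carbon monoxide and biliverdin. The iron is then either exported through ferroportin (Slc40a1), the known cellular iron exporter, or stored in ferritin, a shell of heavy (Fth1) and light (Ftl1) chains of which the heavy chain oxidises iron so that it can be laid down. The transferrin receptor (Tfrc) brings iron in from the blood and is known to be high in dividing cells. NRAMP1 (Slc11a1) moves iron and manganese out of the phagosome of macrophages and neutrophils and is known for its part in resistance to intracellular microbes.

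Much of the control of these genes acts on their RNA. Iron regulatory proteins bind a hairpin, the iron-responsive element, when iron is scarce. In the 5′ UTR the bound hairpin blocks translation, and in the 3′ UTR it protects the RNA from decay. The hairpins are shown because control of translation through them is not visible in the UMI counts reported here. A search of protein-coding transcripts (GENCODE vM21, build GRCm38) for a bulged C, a stem of 5 pairs and the loop CAGTGN, with N any base but G and G-T pairs allowed in the stem, found matches in 222 of 21901 genes (1.01%) and in 4 of the 6 genes. Below, the loop is in capitals, in the middle of the 27 bases given 5′ to 3′ on the gene's strand. Slc40a1, Fth1 and Ftl1 held 1 match each in exon 1, within the 5′ UTR, at chr1:45925466-45925492 (minus strand), chr19:9982733-9982759 (plus strand) and chr7:45459780-45459806 (minus strand). Tfrc held 4, all in the 3′ UTR within its exon 19, the last, on the plus strand at chr16:32631220-32631246, chr16:32631599-32631625, chr16:32631664-32631690 and chr16:32631711-32631737. The Hmox1 gene (chr8:75093621-75100589) and the Slc11a1 gene (chr1:74375195-74386062) had no match by these letters.
Slc40a1: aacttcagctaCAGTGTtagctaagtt
Fth1: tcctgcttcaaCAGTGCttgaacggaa
Ftl1: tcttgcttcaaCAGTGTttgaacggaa
Tfrc element 1: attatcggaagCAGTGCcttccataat
Tfrc element 2: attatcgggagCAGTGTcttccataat
Tfrc element 3: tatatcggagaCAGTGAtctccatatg
Tfrc element 4: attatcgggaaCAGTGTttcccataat

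Barcodes with at least 1000 UMIs and at most 30% mitochondrial UMIs were kept, less likely doublets, which left 5029 cells of the PBS library, 4689 of the 3-day and 4035 of the 7-day WGP library, with medians of 5507, 5580 and 7806 UMIs. The libraries held 52464690, 56849043 and 48219246 UMIs and shared 1 to 6 barcodes between pairs. Cells were clustered without the iron and heme genes, and each cluster was named from marker genes, so that a name such as Arg1 macrophage stands for an Arg1 macrophage-like cluster. The monocyte/macrophage class held 847, 754 and 1435 cells (PBS, 3-day, 7-day), and different clusters held most of it: resident macrophages made up 608 of the 847 PBS cells, Arg1 macrophages 400 of the 754 3-day cells and inflammatory macrophages, marked by Ccl5, Cxcl9 and Nos2, 679 of the 1435 7-day cells. Under log-normalized re-clustering no large peritoneal macrophage cluster was found, and only 4 of 23 PBS and 12 of 44 3-day inflammatory macrophages kept that name. The large peritoneal name is also weak by its markers. The 35 PBS cells under it had 646 CPM of the peritoneal macrophage gene Prg4 but only 2.41 CPM of another, Gata6. Lymphoid cells (B, plasma, T, γδ T, NK cells and ILC2) held 3240, 3064 and 1670 cells. Levels are counts per 1000000 UMIs (CPM), summed over a class, with exact Poisson 95% intervals, and differences are log2 ratios of CPM with exact binomial 95% intervals. Both cover counting error only. A UMI marks the 3′ end of 1 RNA molecule, so levels were not divided by gene length.

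The libraries differed in sex-linked transcripts. Of the monocyte/macrophage cells with Xist or a chromosome Y transcript but not both, 99.1% had Xist in the PBS library, 14.4% in the 3-day library and 49.4% in the 7-day library, whereas B cells stayed at 26.8%, 25.3% and 30.1%. Only 7 PBS monocyte/macrophage cells carried Y transcripts, so sex and WGP treatment cannot be told apart for the PBS and 3-day class totals. Values within Xist cells (797, 81 and 561 cells) therefore stand beside each class result. A change within that split is between cells of 1 sex, but not between the same mixture of states.

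In the monocyte/macrophage class as a whole, Hmox1 and Fth1 were higher and Slc40a1 was lower in both WGP libraries than in the PBS library. Ftl1 and Slc11a1 lay within 0.41 of PBS on the log2 scale, and Tfrc was higher at 3 days and lower at 7 days. With 10 CPM added to both sides, 2 of the 6 genes were at least 2-fold higher at 3 days (Hmox1 and Fth1) against 3.61% of the 8164 genes tested, and 1 was at least 2-fold lower (Slc40a1) against 3.61%. At 7 days 1 was at least 2-fold higher (Fth1; 4.15% of 8114 genes) and 1 at least 2-fold lower (Slc40a1; 5.98%). The median log2 ratio of the 6 genes was 0.54 at 3 days and 0.01 at 7 days, beside −0.05 and −0.13 over all genes tested. Within Xist cells none of the 6 was at least 2-fold higher at 3 days, and 2 were at 7 days (Hmox1 and Fth1).

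**Figure D1:**
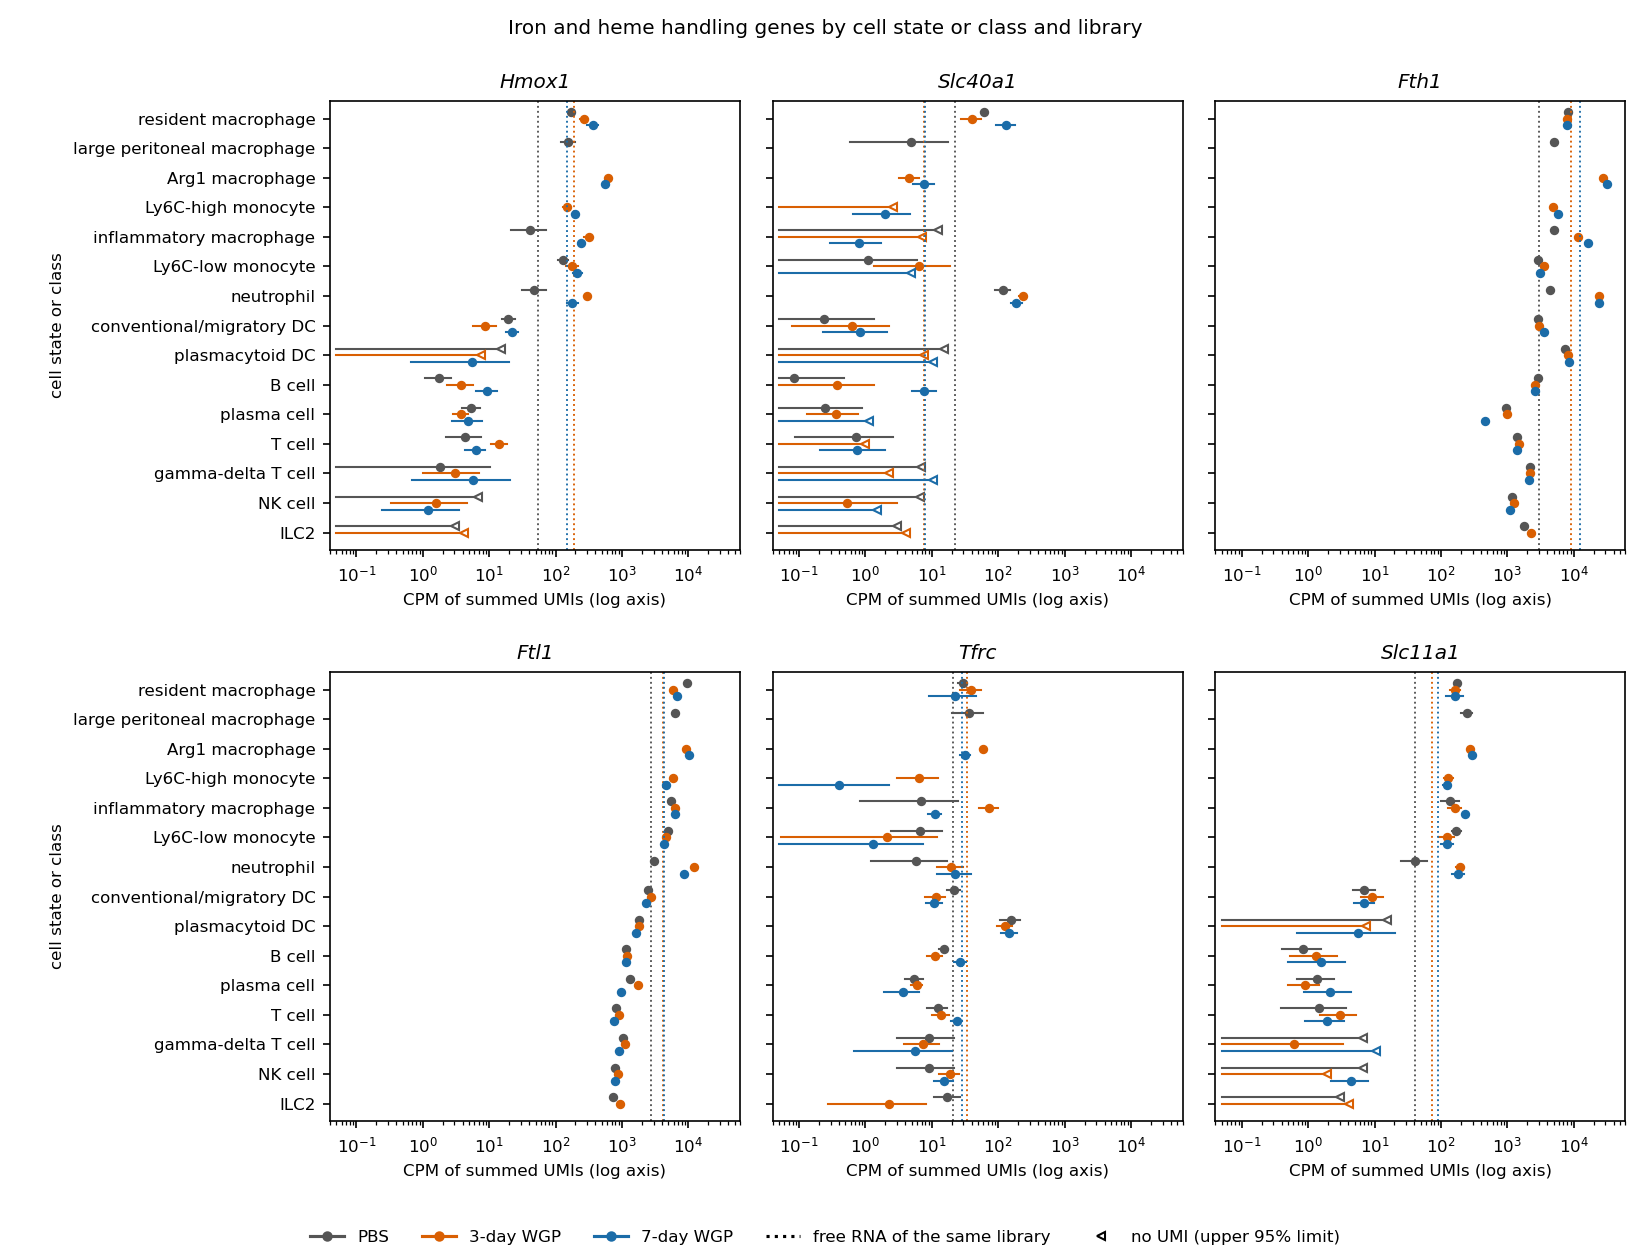
Levels of the 6 genes in CPM of summed UMIs (log axis) by cell state or class, in the PBS, 3-day and 7-day WGP libraries, for groups of at least 20 cells; bars are 95% counting intervals, dotted lines the level in free RNA of the same library, and open triangles the upper limit where no UMI was seen. Hmox1 and Slc11a1 stand above 100 CPM in most monocyte and macrophage states and under 15 CPM in the lymphoid classes, Slc40a1 is high in resident macrophages and neutrophils, and Tfrc is highest in plasmacytoid DC.

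Hmox1, the heme-degrading enzyme, was 159 CPM in monocyte/macrophage cells of the PBS library, 480 CPM at 3 days and 314 CPM at 7 days. Relative to PBS this was a log2 ratio of 1.59 (95% interval 1.51 to 1.68) at 3 days and 0.98 (0.90 to 1.07) at 7 days, with the 7-day library 0.61 below the 3-day library on that scale. Thinned to 1000 UMIs a cell, 13.5%, 29.6% and 22.7% of the cells had an Hmox1 UMI (62.0%, 83.4% and 72.1% unthinned, at medians of 9785, 13892 and 10736 UMIs). In lymphoid cells the thinned shares were 0.15%, 0.49% and 0.36%, with levels of 3.07, 4.70 and 5.69 CPM at medians of 4068, 4513 and 5996 UMIs. Free RNA, taken from barcodes of 1 to 100 UMIs, held 54.0, 191 and 148 CPM of Hmox1, so the class stood above the free RNA of its library in each case and lymphoid cells stood far below it.

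Hmox1 was higher in both WGP libraries within resident macrophages and inflammatory macrophages, whereas in Ly6C-low monocytes the 7-day difference rested on 1 cell. In resident macrophages, which carry Mrc1 and the C1q genes, it was 168 CPM in the PBS, 268 in the 3-day and 363 in the 7-day library, log2 ratios of 0.67 (0.46 to 0.87) and 1.11 (0.82 to 1.39). The 7-day value rests on 37 cells. In 3 of them, those with 3 or more Slc40a1 UMIs, Hmox1 was 1987 CPM, and in the other 34 it was 252 CPM. No 7-day ratio of this state was recomputed without those 3 cells. Within Xist resident macrophages the ratios were 0.72 (0.34 to 1.08; 26 against 593 cells) and 1.40 (1.05 to 1.73; 17 cells). The 3-day increase in this state was thus also measured between cells of 1 sex. At 7 days the 17 Xist cells held 38 Slc40a1 UMIs, as many as those 3 cells, so this ratio may rest on them as well. Ly6C-low monocytes, the patrolling type, had 130, 178 and 212 CPM, log2 ratios of 0.46 (0.03 to 0.87) and 0.71 (0.36 to 1.06). One of the 94 cells at 7 days held 62 of the 162 UMIs, and without it the level was 133 CPM, close to PBS. Inflammatory macrophages had 40.7, 317 and 243 CPM, of which the PBS value comes from 12 UMIs in 23 cells. Their marker Cxcl9 was 878, 421 and 2099 CPM, but 24.3 CPM in the 29 Y cells at 3 days. The 3-day value may therefore come from cells unlike those of the other libraries.

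The highest Hmox1 was in Arg1 macrophages, a state marked by Arg1, Saa3 and Gpnmb. They had 627 CPM at 3 days and 554 CPM at 7 days, both above every other state or class of the same library, and the PBS library held only 10 such cells. In the 3-day library the inflammatory macrophages (317 CPM), neutrophils (296) and resident macrophages (268) followed, with overlapping intervals. At 7 days resident macrophages (363) came next, then inflammatory macrophages (243), Ly6C-low monocytes (212), Ly6C-high monocytes (196) and neutrophils (180), and from inflammatory macrophages on each overlapped with the next. The resident value was 252 CPM in the 34 cells with fewer than 3 Slc40a1 UMIs, near that of inflammatory macrophages. In the PBS library resident macrophages (168), large peritoneal macrophages (157) and Ly6C-low monocytes (130) overlapped in turn.

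The class-level Hmox1 result at 3 days was not seen between cells of 1 sex. In Xist cells the level was 156 CPM in the PBS and 161 CPM in the 3-day library, a log2 ratio of 0.04 (−0.19 to 0.27), and 336 CPM at 7 days, a log2 ratio of 1.11 (1.01 to 1.21). The 2 sets of 3-day cells also differed in make-up: 22.2% of Xist cells and 60.5% of Y cells were Arg1 macrophages, and 32.1% and 9.1% were resident macrophages. Within the Arg1 cluster at 3 days, the 18 Xist cells had 125 CPM of Hmox1 and 4990 CPM of Fth1, and the 292 Y cells had 668 and 28731 CPM. Those 18 Xist cells had more of the peritoneal macrophage genes Prg4 (3264 against 142 CPM) and Gata6 (130 against 7.85 CPM) and less Arg1 (444 against 1476 CPM) and Gpnmb (7.97 against 523 CPM) than the Y cells. Saa3, also a marker of the state, was not lower in them (23939 against 20202 CPM). At 7 days the 99 Xist and 117 Y cells of the cluster were close for Fth1 (32840 and 33205 CPM) and had 669 and 491 CPM of Hmox1. The part of sex and of state in the 3-day class result was not tested.

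**Figure D2:**
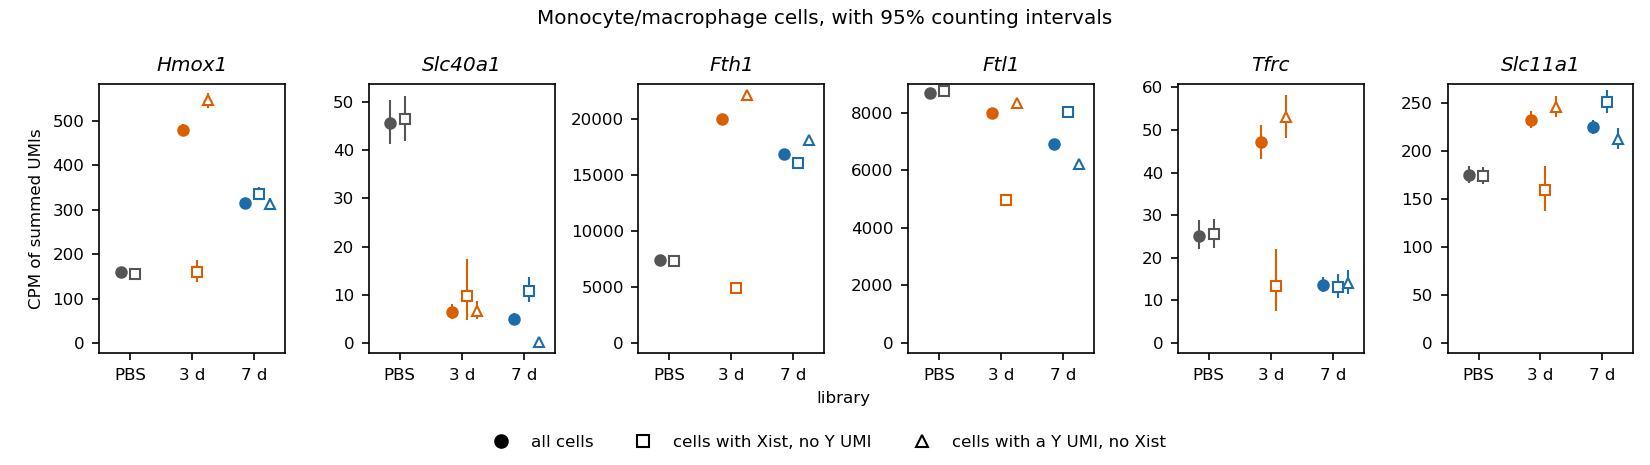
Level of each of the 6 genes in monocyte/macrophage cells (CPM of summed UMIs) by library, for all cells (filled circles), cells with Xist and no chromosome Y UMI (squares) and cells with a Y UMI and no Xist (triangles; the 7 such PBS cells are not drawn); bars are 95% counting intervals. At 3 days the Xist cells sit at 161 CPM of Hmox1 and 4893 CPM of Fth1, far below the class totals of 480 and 20021, and at 7 days they sit beside them.

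**Figure D3:**
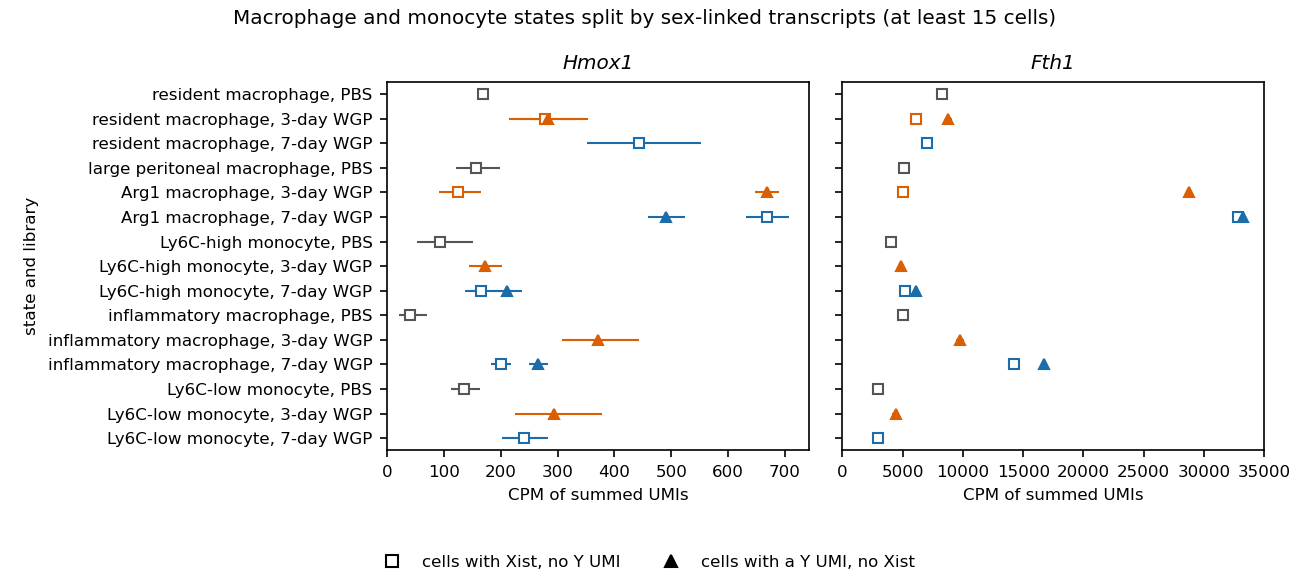
Hmox1 and Fth1 (CPM of summed UMIs) in each macrophage or monocyte state and library, split into cells with Xist (open squares) and cells with a chromosome Y transcript (filled triangles), for groups of at least 15 cells; bars are 95% counting intervals. In Arg1 macrophages the Fth1 values are 4990 and 28731 CPM at 3 days and 32840 and 33205 CPM at 7 days.

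Slc40a1, the iron exporter, went the other way in the class totals, with 45.7 CPM in the PBS library, 6.38 CPM at 3 days and 5.04 CPM at 7 days. The log2 ratios to PBS were −2.84 (−3.22 to −2.47) and −3.18 (−3.54 to −2.84), and within Xist cells −2.25 (−3.26 to −1.39) and −2.09 (−2.48 to −1.73). The 3-day and 7-day libraries differed by −0.34 (−0.81 to 0.13). The thinned shares of cells with a UMI were 4.13%, 1.46% and 0.139% (19.1%, 4.77% and 1.53% unthinned). Free RNA held 22.1, 7.61 and 8.0 CPM, so the class totals of the WGP libraries were below free RNA.

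Resident macrophages carried nearly all of the PBS class total, and the part of state make-up in the class ratios was not tested. Of 392 Slc40a1 UMIs in PBS monocyte/macrophage cells, 386 were in resident macrophages, and 323 of those in a cluster led by Cd209f, where 128 of 257 cells had one and the level was 138 CPM. The other resident cluster, led by Fcrls, had 15.5 CPM. Within resident macrophages the 3-day library was lower than PBS (60.4 against 40.02 CPM; log2 ratio −0.59, −1.14 to −0.09), and the 7-day library was higher (131 CPM; 1.11, 0.61 to 1.58). That 7-day level comes from 41 UMIs in 5 of 37 cells, 1 of which held 48.8% of them, and is 68.4 CPM without that cell. The resident clusters differed in direction at 7 days. In the Cd209f-led cluster the level was 138, 68.2 and 45.0 CPM, lower in both WGP libraries (the last from 5 UMIs in 15 cells), and in the Fcrls-led cluster it was 15.5, 11.5 and 178 CPM, of which the last came from 36 UMIs in 3 cells. Monocytes and inflammatory macrophages had 0 to 6.43 CPM in every library, at or below free RNA. Arg1 macrophages, the state with the most Hmox1, had 4.58 and 7.67 CPM of Slc40a1 (the second also 4.58 without 1 cell), and after thinning 3 of 400 cells at 3 days and 0 of 267 at 7 days had UMIs of both genes. Among PBS resident macrophages 8 of 608 had both.

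Neutrophils carried the most Slc40a1 of any class, with 117, 233 and 189 CPM, 5.3 to 31 times the free RNA of the same library. Their log2 ratio to PBS was 0.99 at 3 days (0.58 to 1.42) and 0.68 at 7 days (0.22 to 1.16), and the make-up of the class also differed. In the cluster led by Hdc the level was 322 CPM in the PBS library (48 cells), 284 at 3 days and 233 at 7 days, and in the cluster led by Camp, a granule gene of immature neutrophils, it was 53.1 and 47.7 CPM in the PBS and 3-day libraries. The Hdc-led cluster made up 48 of 82 PBS neutrophils, 213 of 226 at 3 days and 180 of 186 at 7 days, and within it the log2 ratios were −0.18 (−0.67 to 0.34) and −0.47 (−1.0 to 0.09). The part of this make-up, and of sex, in the class values was not tested.

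A small set of cells held much of the remaining Slc40a1. At 7 days 31 of 4035 kept cells had 3 or more Slc40a1 UMIs, 13 of them neutrophils, 8 in the monocyte/macrophage class, 6 in unnamed clusters and 3 in B cell clusters. Of the 31, 11 also had UMIs of Spic, the transcription factor of red pulp macrophages, and 14 of Vcam1. The 3 cells lying in B cell clusters all had C1qa, Vcam1 and Spic and none had Cd79a, so they went against the B cell name. The 6 unnamed cells all had C1qa and Vcam1, and 5 had Spic. Spic and Vcam1 were at 1.07% and 3.32% of the other 7-day cells. The B cell level at 7 days was 7.75 CPM, against 0.08 CPM in the PBS and 0.37 CPM in the 3-day library (1 and 2 UMIs), and 19 of its 25 UMIs came from those 3 cells. Vcam1 was chosen after its values were seen.

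Fth1, the ferritin heavy chain, was higher in both WGP libraries in the class totals. Monocyte/macrophage cells had 7462, 20021 and 16896 CPM, log2 ratios of 1.42 (1.41 to 1.44) at 3 days and 1.18 (1.17 to 1.19) at 7 days. Within Xist cells the ratio turned at 3 days, to −0.59 (−0.63 to −0.55), and was 1.12 (1.11 to 1.14) at 7 days. Fth1 UMIs were found in nearly all thinned cells of the class in each library, so its differences are of amount and not of share.

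By state, Fth1 was near level in resident macrophages and high in Arg1 macrophages. Resident macrophages had 8221, 8038 and 7830 CPM, log2 ratios of −0.03 (−0.07 to 0.00) and −0.07 (−0.13 to −0.01). Ly6C-low monocytes were also near level, with 2946, 3624 and 3144 CPM. Arg1 macrophages had 27781 CPM at 3 days and 31744 CPM at 7 days, the highest of any state or class in each library, with medians over cells of 234 and 277 Fth1 UMIs per 10000 and a 90th percentile of 546 and 580. Inflammatory macrophages had 5060 CPM (23 cells) in PBS, 11570 at 3 days and 16404 at 7 days. Neutrophils had 4356, 24534 and 23781 CPM, and within their Hdc-led cluster the log2 ratios to PBS were 1.38 (1.31 to 1.46) and 1.32 (1.24 to 1.40). Free RNA held 3056, 9169 and 12357 CPM of Fth1 and acinar genes put the free share of monocyte/macrophage UMIs at 9.33%, 2.53% and 1.11%, which would carry 285, 232 and 138 CPM of it. This share depends on the genes used. In the PBS class erythroid genes were at 54.7 CPM against 12000 CPM in free RNA, and B cell genes at 104 against 1402 CPM, both lower shares than the acinar one.

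Ftl1, the light chain, did not follow the heavy chain in the class. It was 8691 CPM in the PBS library, 7992 at 3 days and 6912 at 7 days, log2 ratios of −0.12 (−0.13 to −0.11) and −0.33 (−0.34 to −0.32), of which the 3-day value turned to 0.01 with TMM scaling. Within Xist cells the level was 8753, 4956 and 8044 CPM, log2 ratios of −0.82 and −0.12. In resident macrophages it was lower in both WGP libraries (9683, 5926 and 6864 CPM; −0.71 and −0.50), also within Xist cells (−0.87 and −0.45). Arg1 macrophages had 9275 and 10185 CPM. The annotated copy Ftl1-ps1, whose reads may be shared with Ftl1, had 96.0, 94.4 and 77.0 CPM in the class.

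The balance of the chains differed by state. There were 0.859 Fth1 UMIs per Ftl1 UMI in monocyte/macrophage cells of the PBS library, 2.51 at 3 days and 2.44 at 7 days. Resident macrophages had 0.849, 1.36 and 1.14, and Ly6C-low monocytes 0.593, 0.779 and 0.727. Arg1 macrophages reached 3.00 and 3.12, and inflammatory macrophages 0.913, 1.82 and 2.59. Plasmacytoid DC had the highest ratio of the classes drawn, at 4.17, 4.51 and 5.21, and plasma cells the lowest of the lymphoid classes, at 0.717, 0.573 and 0.478. The 2 chains together made up 3.71% and 4.19% of all UMIs in Arg1 macrophages, and 0.316%, 0.288% and 0.232% in lymphoid cells.

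**Figure D4:**
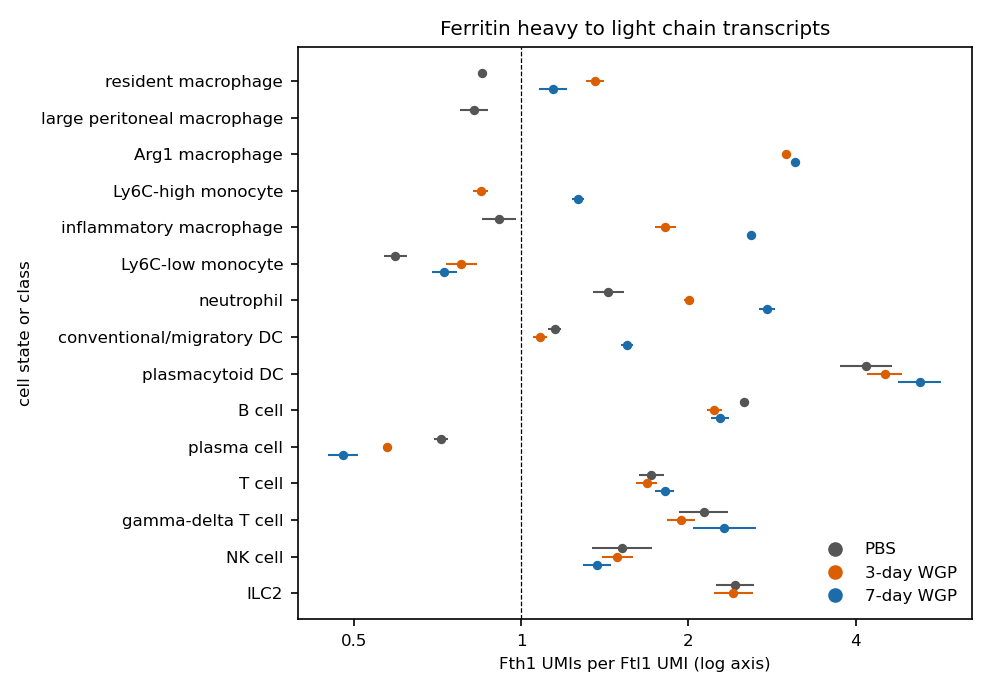
Fth1 UMIs per Ftl1 UMI (log axis) by cell state or class in each library, with 95% counting intervals; the dashed line marks equal numbers. Arg1 macrophages stand at 3.00 and 3.12 and inflammatory macrophages move from 0.913 in PBS to 2.59 at 7 days, whereas resident macrophages stay between 0.849 and 1.36.

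Lymphoid cells had less ferritin RNA than monocyte/macrophage cells, and their pooled values differed from those of the classes within them. Fth1 was 2016, 1460 and 1414 CPM in the pool, log2 ratios of −0.47 and −0.51, whereas in B cells the ratios were −0.16 and −0.17 and in T cells 0.13 and −0.01. B cells, the lymphoid class with the most Fth1 (2931, 2615 and 2601 CPM), made up 1930 of 3240, 829 of 3064 and 512 of 1670 lymphoid cells, and plasma cells, which hold little (955, 992 and 468 CPM), made up 255, 547 and 79. The part of this make-up in the pooled values was not tested. Ftl1 in the pool was 0.31 above PBS at 3 days and 0.34 below at 7 days. In plasma cells it went from 1331 to 1732 and 981 CPM, and in B cells it stayed at 1162, 1174 and 1141 CPM.

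Tfrc, the transferrin receptor, was on opposite sides of PBS at the 2 times in monocyte/macrophage cells. It was 25.2 CPM in PBS, 47.1 at 3 days and 13.6 at 7 days, log2 ratios of 0.90 (0.67 to 1.14) and −0.89 (−1.16 to −0.61). Within Xist cells both were lower, at −0.94 (−1.80 to −0.18) and −0.96 (−1.34 to −0.59). The thinned shares were 3.31%, 5.17% and 1.05% in this class and 1.42%, 0.85% and 1.86% in lymphoid cells. Free RNA held 20.6, 34.0 and 28.4 CPM, so the 7-day class lay below free RNA.

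Plasmacytoid DC had the highest Tfrc level of any state or class in all 3 libraries (154, 127 and 145 CPM), although at 3 days their interval overlapped that of the next, inflammatory macrophages (73.3 CPM, 38 UMIs; 46.8 CPM without 1 cell). Arg1 macrophages had 59.6 and 31.4 CPM, a 7-day to 3-day log2 ratio of −0.92 (−1.22 to −0.64). Resident macrophages had 29.3, 38.9 and 22.3 CPM (the last from 7 UMIs), with intervals of both ratios to PBS that include 0. Of their clusters in the PBS library the Cd209f-led one, which also held the Slc40a1, had 61.6 CPM and the Fcrls-led one 10.6 CPM. Ly6C-high and Ly6C-low monocytes lay at 0.40 to 6.54 CPM in the libraries with at least 20 of the cells, from 1 to 9 UMIs each.

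In lymphoid cells Tfrc was 11.5, 8.48 and 18.1 CPM, log2 ratios of −0.44 (−0.69 to −0.19) at 3 days and 0.66 (0.41 to 0.90) at 7 days. Of the 87 Tfrc UMIs in 7-day B cells, 43 came from 4 cells in which globin transcripts were at least 1% of UMIs. Without such cells the B cell level went from 27.0 to 14.0 CPM, its log2 ratio to PBS from 0.85 to −0.11 (−0.62 to 0.38), and that of all lymphoid cells to 0.41 (0.16 to 0.67). T cells, which held no such cell at 7 days, had 12.3, 13.5 and 23.7 CPM, log2 ratios of 0.14 (−0.52 to 0.81) and 0.94 (0.38 to 1.53). Cells with at least 2 UMIs of the cycle genes were set against cells with none. The cycling cells had more Tfrc in T cells of the PBS library (37.6 against 7.87 CPM) and of the 7-day library (41.3 against 16.2 CPM). The same held in plasma cells of the PBS and 3-day libraries (7.04 against 3.02 and 7.43 against 2.97 CPM). At 3 days the T cell values were 9.87 and 14.6 CPM with overlapping error, and cycling cells had more UMIs in each of these groups. In B cells the values were 23.2 against 14.2 CPM in PBS, 15.2 against 10.3 at 3 days and 153 against 14.1 at 7 days, with the globin-rich cells included. The intervals of the ratio included 0 for 3-day B cells, 7-day plasma cells, NK cells at both times and 3-day γδ T cells. Cycling monocyte/macrophage cells had 20.3 against 26.2 CPM in PBS, where the interval included 0. They had 64.4 against 42.1 CPM at 3 days and 25.2 against 12.7 CPM at 7 days.

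Slc11a1, the phagosomal transporter, was found in the phagocytes. Monocyte/macrophage cells had 175, 233 and 225 CPM, log2 ratios of 0.41 (0.32 to 0.50) and 0.36 (0.28 to 0.45), and the 7-day and 3-day libraries differed by −0.05 (−0.12 to 0.02). In Xist cells the ratios were −0.13 (−0.36 to 0.10) and 0.53 (0.42 to 0.63), and the 3-day ratio was also below 0, at −0.08, when cells above the knee of the UMI rank curve were left out. Resident macrophages had 174, 165 and 162 CPM, and the intervals of both ratios include 0. The highest levels were in large peritoneal macrophages in PBS (243 CPM, 35 cells) and in Arg1 macrophages at 3 and 7 days (278 and 292 CPM). Inflammatory macrophages went from 139 to 162 and 233 CPM. B, plasma, T, NK and γδ T cells and ILC2 had at most 4.39 CPM in each library with 20 or more of the cells, and the thinned shares in lymphoid cells were 0.03%, 0.07% and 0.42% against 14.9%, 17% and 19.4% in the class. Free RNA held 40.9, 72.8 and 89.0 CPM.

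Neutrophils were the other class with Slc11a1, and in the class as a whole all 6 genes were higher in both WGP libraries than in the PBS library. The ratios of Slc40a1 are given above, and those of Tfrc, 1.76 (0.02 to 4.15) and 1.98 (0.11 to 4.43), rest on 3 PBS UMIs. The log2 ratios to PBS at 3 and 7 days were 2.28 and 2.17 for Slc11a1, 2.62 and 1.90 for Hmox1, 2.49 and 2.45 for Fth1 and 2.01 and 1.5 for Ftl1. Within the Hdc-led cluster they were 1.03 and 0.88 for Slc11a1, 1.09 and 0.35 for Hmox1 and 1.01 and 0.48 for Ftl1, with the 7-day Hmox1 interval (−0.34 to 1.1) including 0. Neutrophils were 82, 226 and 186 cells, and 80.8%, 9.90% and 29.2% of those with 1 kind of sex-linked transcript had Xist.

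The other 59 genes of the iron and heme lists gave 4 that were at least 2-fold higher and 3 at least 2-fold lower among 41 tested in monocyte/macrophage cells, at 3 and at 7 days. Over all genes tested 3.61% were higher and 3.61% lower at 3 days, and 4.15% and 5.98% at 7 days, so the count of lower genes at 7 days lay near this background. Higher at both times were Hp, which encodes the hemoglobin-binding haptoglobin (82.0, 412 and 479 CPM), Fbxl5, the iron-sensing subunit of a ubiquitin ligase (67.1, 208 and 316 CPM), and 2 targets of the oxidative stress factor NRF2, the cystine transporter Slc7a11 (1.75, 59.6 and 117 CPM) and the thioredoxin reductase Txnrd1 (35.2, 105 and 112 CPM). Lower at both times were Cd163, the receptor for haptoglobin-hemoglobin (236, 47.4 and 4.44 CPM), Trf, transferrin (871, 327 and 139 CPM), and Cp, ceruloplasmin, which oxidises exported iron (93.1, 29.5 and 9.85 CPM). Within Xist cells at 3 days only Hp of these 7 remained past 2-fold, with a log2 ratio of 1.66. At 7 days all 7 did, from −3.80 for Cd163 to 3.49 for Slc7a11.

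By role, the lists gave these counts of genes at least 2-fold apart, the 6 genes included. Of 4 heme breakdown genes 1 was higher at 3 days and none at 7 days, and of 6 tested genes of heme and hemoglobin capture 1 was higher and 1 lower at each time. Both tested genes of iron export were lower at each time. Among 5 genes of iron storage 1 was higher, among 7 of iron uptake 1 was lower, and among 7 regulators 1 was higher, at each time. Of all genes 3.61% to 5.98% were called, and with so few genes in a list a count of 1 is not read as a result about the list. None of 4 mitochondrial iron genes or 6 heme synthesis genes was 2-fold apart. Of the 6 other NRF2 targets tested 2 were higher, and their median log2 ratio was 0.86 at 3 days and 0.71 at 7 days, beside −0.05 and −0.13 over all genes. Within Xist cells at 3 days, Hp (1.66) and Slc40a1 (−1.51) were the only tested genes of these lists at least 2-fold apart. The other genes called at 3 days fell short of 2-fold. They were Slc7a11 (0.97), Fbxl5 (0.64), Txnrd1 (0.38), Hmox1 (0.04), Trf (−0.02), Cp (−0.50), Cd163 (−0.52) and Fth1 (−0.59), of which Fth1 changed sign. At 7 days every call held in Xist cells, and Hmox1 (1.06) and Ncoa4, the receptor that takes ferritin to the lysosome (−1.08), also passed 2-fold.

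**Figure D5:**
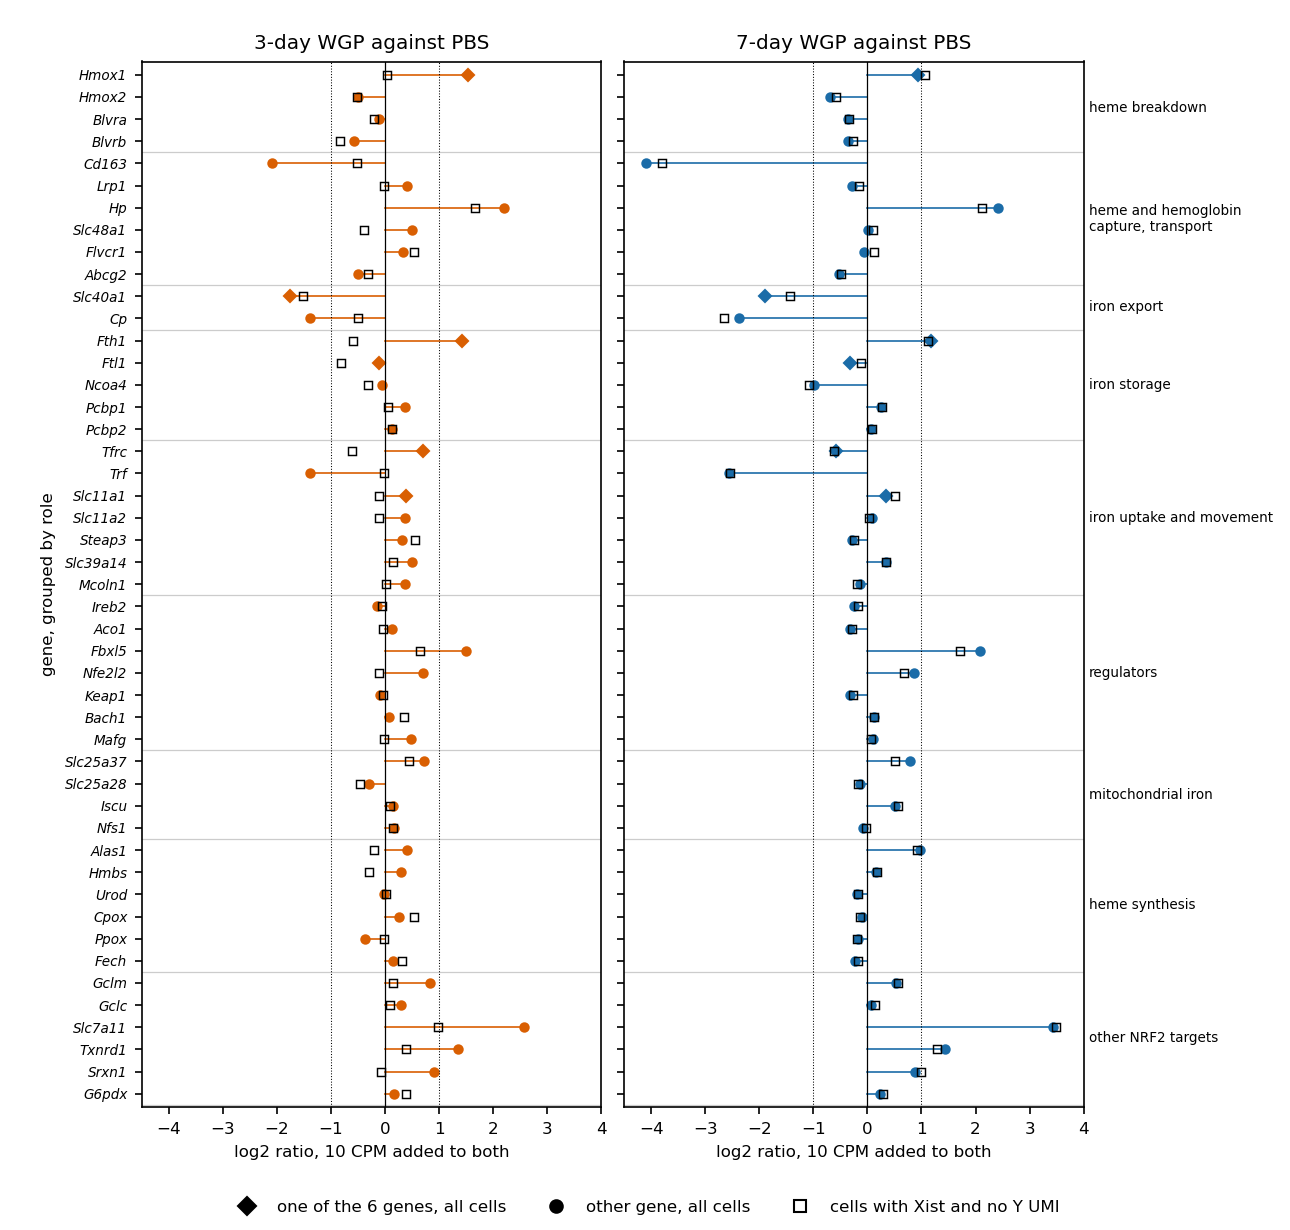
Log2 ratio to PBS, with 10 CPM added to both sides, of each tested gene of the iron and heme lists in monocyte/macrophage cells at 3 days (left) and 7 days (right), grouped by role; diamonds are the 6 genes, circles the others and open squares the value within Xist cells. At 3 days most squares lie nearer 0 than the filled points, and at 7 days the squares lie close to them, from −3.80 for Cd163 to 3.49 for Slc7a11.

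Over the 38 pairs of library and named class or state with at least 50 cells, the genes whose log2 level was most like each of the 6 were taken among 6212 genes. The pairs share libraries, and the monocyte/macrophage class enters only as its states, so these correlations are a description. Hmox1 was closest to Slc11a1 (Pearson r of 0.98), the lipoprotein-associated phospholipase Pla2g7 (0.97) and the Fc receptor Fcgr4 (0.97), and Slc11a1 to Pla2g7, Hmox1 and the LPS co-receptor Cd14 (0.98 each). Slc40a1 was closest to the gelatinase Mmp9 (0.98), C5ar2 (0.93) and Siglece (0.91). Fth1 was closest to Mtm1 (0.92), Bnip3 (0.92) and Sgpl1 (0.90), and Ftl1 to its copy Ftl1-ps1 (0.95), Cd14 (0.94) and the receptor Tlr2 (0.94). Tfrc had no close match, with Slc41a2 at 0.80, Pir at 0.77 and Slc27a1 at 0.76.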

How the data were processed

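Live CD45+ pancreas cells of PBS, 3-day WGP and 7-day WGP mice gave 1 droplet library each (10x 3′ chemistry). The deposited matrices hold raw UMI counts per gene and barcode that the authors made with Cell Ranger 3.1.0 on mm10, per the labels, with every barcode listed; Seurat is also named there, with no version. No column of the authors' comparisons was used. From these counts barcodes with at least 1000 UMIs and at most 30% mt- UMIs were kept. Scrublet (scanpy 1.11.5) marked 0, 1 and 1 doublets by itself, so the highest scores were removed at 0.8% per 1000 cells (4.19%, 3.89% and 3.33%). Cells were clustered in Seurat 5.3.0 (sctransform 0.4.2, 3000 variable genes less the iron and heme genes, 30 components, resolution 0.8; 0.4 for the monocyte/macrophage class), with cell cycle, mitochondrial and ribosomal shares regressed out. Clusters were named from fixed markers; pooling the monocyte and macrophage lists, and the 2 lists of migratory and conventional DC, was set after the clusters were seen. UMIs were summed per class and library as CPM, with Poisson and binomial intervals (scipy 1.17.1), tested on simulated data. A gene entered the counts with at least 10 CPM in either library. Shares come from cells thinned to 1000 UMIs.

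The members, classes and lists were chosen with earlier results of these data known. The text names all 6 genes, the other iron and heme genes at least 2-fold apart (up to 8 at each time), and the 3 genes most like each member (at least 50 CPM in 1 pair). With 1 library per group no test was possible, and p-values and replicate error are not given. The alternatives tried are in the closing section. Each library was 48219246 to 56849043 UMIs deep.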

Additional observations from a re-analysis of the deposited data

Results flagged for a closer look

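Both WGP libraries were compared with the same PBS library, and 4 values lay on opposite sides of 0 at the 2 times. The difference between the times was not tested, since each group is 1 library. Tfrc in monocyte/macrophage cells had a log2 ratio to PBS of 0.90 at 3 days and −0.89 at 7 days, but −0.94 and −0.96 within Xist cells. Tfrc in lymphoid cells had −0.44 and 0.66, of which the second was 0.41 without the cells rich in globin transcripts. Ftl1 in lymphoid cells had 0.31 and −0.34. Slc40a1 in resident macrophages had −0.59 and 1.11, the latter from 41 UMIs in 5 cells, 36 of them in 3 cells of the Fcrls-led cluster. In the Cd209f-led cluster, which held most of the PBS UMIs, the level was lower at both times (138, 68.2 and 45.0 CPM).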

How the results depend on the processing

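No paired analysis was possible because each group is 1 library. Of the 11 alternatives run on the log2 ratios of the 6 genes, keeping Xist cells changed most: at 3 days no member (2 in the main analysis) and 1 other iron and heme gene (4) were at least 2-fold higher and 0 others (3) lower, and at 7 days 2 members (1) were higher. Tfrc, Slc11a1 and Fth1 at 3 days changed sign in Xist cells (−0.94, −0.13 and −0.59), Slc11a1 also under the upper UMI limit (−0.08) and Ftl1 under TMM (0.01). An upper limit of 10591 UMIs, the knee of the rank curve, left 1 member higher at 3 days and 0 at 7 days, and 1 other gene lower at 3 days. TMM factors (1.098, 1.0004 and 0.910) moved every log2 ratio up by 0.13 at 3 days and 0.27 at 7 days, with 2 members and 8 other genes higher at 7 days. With 1 CPM added in place of 10, 5 other genes (3) were lower at 7 days. Clustering with all genes, log-normalized clustering, a resolution of 1.2, keeping doublets, 2000 UMIs as the minimum, a 40% ribosomal limit, per-cell means and subtracting free RNA left these counts within 1.5 times. Slc40a1 was lower and, at 7 days, Hmox1 and Fth1 were higher under all 11. Log-normalized re-clustering of the states, added after seeing the data, moved 3 of 53 levels of at least 10 CPM by over 1.5 times: Slc40a1 and Tfrc in 7-day resident macrophages (131 to 82.2 and 22.3 to 41.1 CPM) and Slc11a1 in 7-day Ly6C-high monocytes (122 to 202 CPM). Large peritoneal macrophages (35 cells to 0) and inflammatory macrophages of the PBS (4 of 23 cells shared) and 3-day libraries (12 of 44) were too few to compare, so these states depend on the clustering. Causes were not tested. Depth limits Slc40a1 and Tfrc most: some of their levels rest on fewer than 3 UMIs.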

Other observations

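Fibroblasts, which the CD45 sort should remove, were present as 36, 47 and 24 cells of the PBS, 3-day and 7-day libraries. Their Fth1 was 4872, 12360 and 13138 CPM while Ftl1 was 1878, 2071 and 1327 CPM, so the heavy to light chain UMI ratio was 2.59, 5.97 and 9.90. Hmox1 in them was 12.9, 150 and 35.4 CPM. Free RNA of the same libraries held 3056, 9169 and 12357 CPM of Fth1, and its part in these values was not tested.

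An unnamed monocyte/macrophage cluster led by Tppp3 held 3, 40 and 114 cells. It had 249 CPM of Hmox1 at 3 days and 240 CPM at 7 days and no Slc40a1 UMI at either time, with 0.587 and 0.649 Fth1 UMIs per Ftl1 UMI. Erythroid cells had 1330, 1232 and 1534 CPM of Ftl1 against 557, 651 and 968 CPM of Fth1, and Tfrc was 1.08, 2.82 and 34.5 CPM (1, 2 and 29 UMIs).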
